A study of Mus musculus with 6 samples.

Results

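Neutrophil transcripts were followed as 10 genes taken by name from among the 47729 genes counted in ECs isolated from the lungs of AngII-infused mice. No cut on measured values was used, but the genes were chosen with earlier results of these data known. They were S100a8, S100a9, Csf3r, Retnlg, Trem1, Mmp8, Mmp9, Lcn2, Ngp and Camp. The 6 libraries were 3 of WT and 3 of leene-KO mice, and the question was whether deletion of leene changed the EC transcriptome. All mice were male, 14 weeks of age and on normal chow, and all received AngII at 1000 ng/kg/min for 2 weeks by osmotic pump, so that no library came from an animal without AngII. The KO mice lacked, in every cell, the region homologous to human LINC00520, which had been removed with CRISPR-Cas9, and the WT mice were their littermates. The sample labels name CD31 as the surface antigen used to enrich the cells, whereas the study's methods name CD144. The labels also state that cells of 3 mice per group were pooled, which leaves unclear if each library came from its own mouse or from part of a pool, and p-values then measure only the spread between libraries, which may be technical. The lncRNAs of the deleted region were not analysed here.

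Neutrophils are short-lived phagocytes that mature in the bone marrow and reach the lung through its capillaries, where many of them linger against the endothelium. During maturation they fill granules in a fixed order, with myeloperoxidase and elastase in the primary granules, lactoferrin, neutrophil granule protein and cathelicidin in the secondary granules, and gelatinase in the tertiary granules. Messages for granule proteins are made mainly in marrow precursors, whereas calprotectin, the G-CSF receptor and several surface receptors are still transcribed in circulating cells. C/EBP factors and PU.1 are the best known transcription factors of this program.

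Promoter sequence is shown for 3 members, 2 with the highest fold changes and 1 on the other side of 0, so that the letters of both classic motifs can be seen. Ngp and Camp, the secondary granule genes, stood higher in every KO library, and S100a8, a calprotectin subunit, had a lower KO mean. The sequences are those of RefSeq on GRCm38.p6, written 5′ to 3′ on the strand of the gene, and they end at the base before the first annotated transcription start. Capitals mark a match to the C/EBP motif (TTGCNNAA) or to the PU.1 motif (GAGGAA), each searched on both strands.
Ngp (chr9:110419558-110419746, plus strand): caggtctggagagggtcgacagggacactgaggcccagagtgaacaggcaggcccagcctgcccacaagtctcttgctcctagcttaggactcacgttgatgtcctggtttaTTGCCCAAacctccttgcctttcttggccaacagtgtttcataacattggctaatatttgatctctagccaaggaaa
Camp (chr9:109849618-109849706, minus strand): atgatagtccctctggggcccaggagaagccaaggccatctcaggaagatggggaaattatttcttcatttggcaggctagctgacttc
S100a8 (chr3:90668821-90668977, plus strand): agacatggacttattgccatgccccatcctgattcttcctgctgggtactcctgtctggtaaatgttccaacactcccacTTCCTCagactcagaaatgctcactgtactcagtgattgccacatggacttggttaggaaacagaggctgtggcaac
The stretch of Ngp held 1 C/EBP match, 69 bases before its end. The stretch of S100a8 held 1 PU.1 match on the opposite strand, 71 bases before its end, and the shorter stretch of Camp held neither motif. No match to one motif overlapped a match to the other in these stretches. In windows of 300 bases, from 250 before to 50 after the RefSeq start, 9 of the 10 members had a sequence, and Mmp9 had none. The C/EBP letters were found in 5 of the 9 (S100a9, Retnlg, Mmp8, Lcn2 and Ngp) and the PU.1 letters in 5 (S100a8, Csf3r, Mmp8, Lcn2 and Trem1). Among 32851 promoter windows of that length, 10.8% held the C/EBP letters, 28.3% the PU.1 letters and 2.92% both. A match is a description of letters and not of a bound site.

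Total counts ran from 24464324 to 35184063 per library, and mitochondrially encoded genes took 37.4% to 54.4% of them. A floor of 3 counts corresponded to between 0.0734 and 0.141 CPM (counts scaled to library size), depending on the library. CPM values here use TMM-scaled library sizes, in which WT replicate 1 had the highest factor (1.37) and the other libraries lay between 0.874 and 1.04. The endothelial list was detected in every library, with its 12 genes summing to 1793 to 3368 CPM in WT and 2216 to 3520 CPM in KO. Its median log2 fold change (KO over WT) was 0.14. Erg, Cldn5 and Cdh5, a transcription factor and a pair of junction proteins of ECs, led it, with log2 fold changes of 0.03, 0.08 and 0.51, and 0 of its 12 genes were called. Sums over 7 alveolar type II genes and 7 airway genes were higher in each library, at 5418 to 50640 CPM and 18780 to 70990 CPM. No share of cells was estimated from these sums. Of the 14625 genes tested, 16 (0.109%) were called at an adjusted p under 0.05 by edgeR's quasi-likelihood test.

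All 10 members were tested. Camp and Ngp reached the level of the low-count filter (0.350 CPM on unscaled library totals, in at least 3 libraries) by way of the KO libraries, which were all above it. On that scale, which differs from the TMM-scaled CPM given elsewhere, 2 WT libraries were above it for Ngp and 0 for Camp, so for Camp a difference was built into being tested. The other 8 members were above it in all 6 libraries. Together the members took 0.0154%, 0.0700% and 0.0254% of all counts in WT replicates 1, 2 and 3, and 0.0583%, 0.0505% and 0.0442% in the KO replicates. WT replicate 1 was therefore the lowest and WT replicate 2 the highest of the 6, with the KO libraries between them. Lcn2 alone supplied 72.1% to 91.2% of the members' counts. Without it, the other 9 summed to 31.3, 85.1 and 42.7 CPM in WT and to 57.4, 55.2 and 62.4 CPM in KO.

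**Figure D1:**
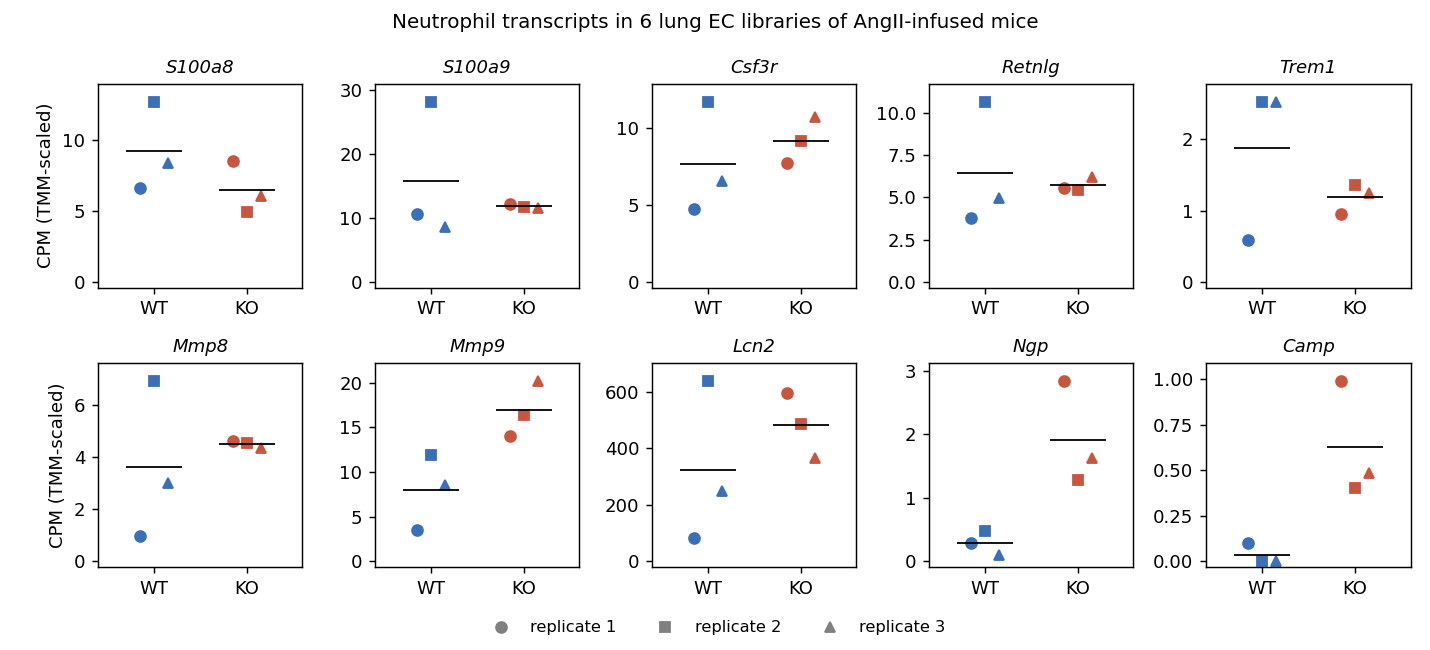
CPM of each of the 10 neutrophil transcripts (vertical axes, TMM-scaled, each from 0 and with its own scale) in the 3 WT (blue) and 3 KO (red) libraries, with marker shape giving the replicate number and a horizontal line the group mean. WT replicate 2 is the highest WT library for 8 of the 10 genes, and every KO library lies above every WT library only for Mmp9, Ngp and Camp.

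Compared per length, in RPKM (reads per kilobase of exon, scaled to library size, mean over the 6 libraries), the members spanned a wide range. Lcn2 was the most abundant at 154 RPKM, above 99.1% of the tested genes, and ranged from 30.9 to 243 RPKM. S100a9 followed at 26.4 RPKM and then S100a8 at 11.3 and Retnlg at 10.1 RPKM. The ratio of S100a9 to S100a8 was above 1 in every library (1.36 to 3.16), whereas that of Retnlg to S100a8 lay on both sides of 1 (0.653 to 1.27), so the order of the latter pair was not settled. Mmp9 (3.52 RPKM), Csf3r (2.34 RPKM) and Mmp8 (1.66 RPKM) formed the middle of the order. Mmp9 exceeded Mmp8 in every library, by a ratio of 1.19 to 3.22, while the ratio of Mmp9 to Csf3r crossed 1 (0.758 to 1.92). Ngp (0.900 RPKM), Trem1 (0.511 RPKM) and Camp (0.434 RPKM) were the lowest, above 26.4%, 17.1% and 14.8% of tested genes, and their ranges overlapped.

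S100a8 and S100a9 encode the subunits of calprotectin, the calcium- and zinc-binding complex that fills the neutrophil cytosol. The genes lie 23 kb apart on chromosome 3 (GRCm38), S100a8 at 90668978 to 90670035 on the plus strand and S100a9 at 90692632 to 90695721 on the minus strand. S100a8 measured 6.63, 12.7 and 8.38 CPM in WT replicates 1 to 3 and 8.47, 4.89 and 6.04 CPM in the KO replicates. The groups overlapped, with 2 of the KO libraries below all WT libraries and the third between them. The means were 9.23 ± 3.11 and 6.46 ± 1.83 CPM (SD, n = 3 each), a log2 fold change of -0.52 ± 0.30 (SE, edgeR quasi-likelihood test, adjusted p = 0.572), which was -0.25 without WT replicate 2. S100a9 measured 10.6, 28.1 and 8.57 CPM in WT and 12.2, 11.6 and 11.5 CPM in KO. The KO libraries were nearly level with each other and lay inside the WT range, which was set by WT replicate 2. Its log2 fold change was -0.43 ± 0.41 (edgeR, adjusted p = 0.716), with a 95% interval of -1.38 to 0.53. Without WT replicate 2 the sign turned, to 0.25.

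Csf3r encodes the G-CSF receptor, through which neutrophil production and survival are driven. It measured 4.77, 11.7 and 6.60 CPM in WT and 7.74, 9.16 and 10.7 CPM in KO. All KO libraries lay between the middle and the highest WT library. The log2 fold change was 0.26 ± 0.32 (edgeR, adjusted p = 0.778), with a 95% interval of -0.50 to 1.01, and it was -0.01 without WT replicate 1 and 0.67 without WT replicate 2. Its ligand gene Csf3 had 0 counts in 5 libraries and 5 counts in KO replicate 2. Trem1, a receptor that signals through the adaptor TYROBP and amplifies inflammatory responses, rested on 24, 86 and 54 counts (WT) and on 22, 37 and 36 counts (KO). That corresponded to 0.588, 2.53 and 2.53 CPM against 0.946, 1.36 and 1.24 CPM, so that the KO libraries again lay inside a wider WT range. Its log2 fold change of -0.65 ± 0.55 (edgeR, adjusted p = 0.679) had a 95% interval of -1.93 to 0.63. It was -1.09 without WT replicate 1, -0.37 without WT replicate 2, -0.39 without WT replicate 3 and -0.23 with limma-voom. Retnlg, which encodes a resistin-like secreted protein abundant in neutrophils, measured 3.79, 10.7 and 4.96 CPM in WT and 5.54, 5.44 and 6.24 CPM in KO. WT replicate 2 was again the highest library and the other WT libraries lay below all KO libraries. The log2 fold change was -0.18 ± 0.37 (edgeR, adjusted p = 0.872), and it turned to 0.36 without WT replicate 2.

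Mmp8 and Mmp9 encode neutrophil collagenase and gelatinase B, the matrix proteases of the secondary and tertiary granules. Mmp8 measured 0.955, 6.93 and 3.00 CPM in WT and 4.64, 4.56 and 4.35 CPM in KO. The spread within WT was 7.26-fold from lowest to highest library and enclosed the 3 KO values, which were close together. Its log2 fold change was 0.32 ± 0.59 (edgeR, adjusted p = 0.853), and it was -0.16 without WT replicate 1 and 1.22 without WT replicate 2. Mmp9 (chromosome 2, 164940780 to 164955850) had groups that were apart in the plot of members by library. It measured 3.55, 11.9 and 8.57 CPM in WT against 14.0, 16.4 and 20.2 CPM in KO, that is 8.01 ± 4.21 against 16.9 ± 3.09 CPM (SD, n = 3 each). The fitted fold was 2.12, a log2 fold change of 1.08 ± 0.39 with a 95% interval of 0.17 to 1.99. The unadjusted p was 0.026 and the adjusted p 0.435 (edgeR quasi-likelihood test), so Mmp9 did not pass. The log2 fold change was 0.71 without WT replicate 1 and 1.48 without WT replicate 2. Relative to Csf3r it stood at 0.758, 1.03 and 1.32 in WT and at 1.85, 1.83 and 1.92 in KO, as ratios of RPKM.

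Lcn2 encodes neutrophil gelatinase-associated lipocalin, which binds bacterial siderophores, and it is also made by lung epithelium. It measured 80.9, 638 and 248 CPM in WT and 598, 487 and 364 CPM in KO. WT replicate 2 was the highest of the 6 libraries and WT replicate 1 the lowest, 7.89-fold below it. The log2 fold change was 0.58 ± 0.63 (edgeR, adjusted p = 0.745), with a 95% interval of -0.88 to 2.05, and it was 0.12 without WT replicate 1 and 1.52 without WT replicate 2. The surfactant gene Sftpc, which marks alveolar type II cells, followed the same order within WT at 2051, 24030 and 7562 CPM and measured 19810, 23840 and 19840 CPM in KO. The ratio of Lcn2 to Sftpc ran from 0.00563 to 0.0121 in RPKM over all libraries, and that of Lcn2 to S100a9 from 1.52 to 9.78. The part of alveolar cells in the level of Lcn2 was not tested. Fewer cells of a type and less RNA per cell cannot be told apart in these bulk libraries, here or for any other member.

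**Figure D2:**
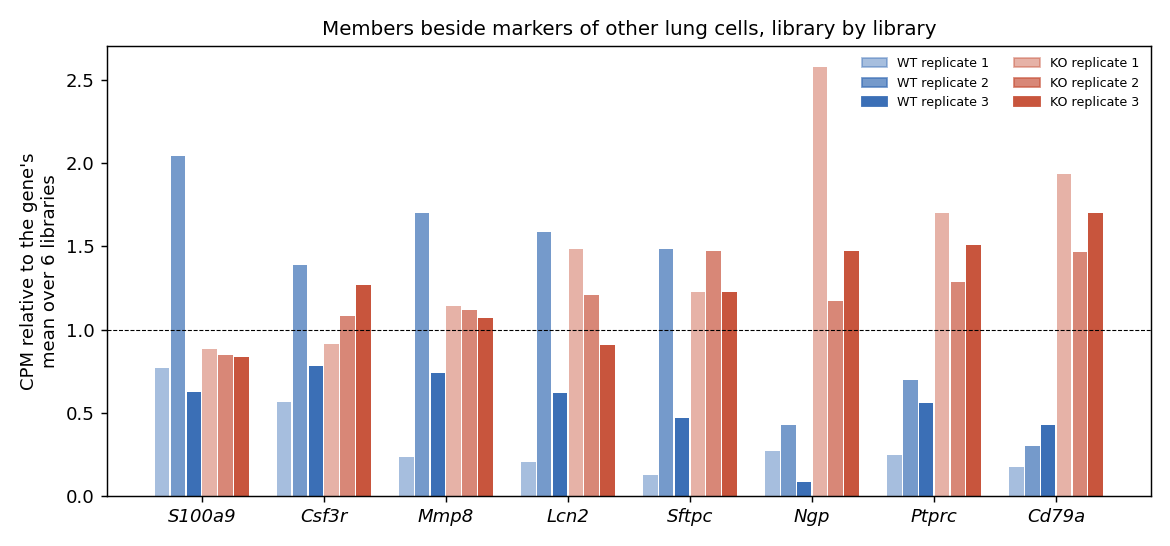
Bars give CPM relative to the gene's mean over the 6 libraries (vertical axis, dashed line at 1) for 5 neutrophil transcripts, the alveolar type II marker Sftpc, the leukocyte marker Ptprc and the B cell marker Cd79a. Shades of blue are WT replicates 1 to 3 and shades of red KO replicates 1 to 3. Lcn2, Mmp8, Csf3r and Ptprc share the WT order of Sftpc, with WT replicate 2 highest and WT replicate 1 lowest within WT. Ngp, Ptprc and Cd79a are above their mean in all KO libraries and below it in all WT libraries.

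Ngp (neutrophil granule protein, a cystatin-like secondary granule component) and Camp (the cathelicidin antimicrobial peptide) lie on chromosome 9, at 110419747 to 110423012 and 109847379 to 109849617. They were the members with the highest fold changes and also among the 3 lowest in level. Ngp had 12, 16 and 2 counts in the WT libraries against 66, 35 and 47 in the KO libraries, or 0.294, 0.470 and 0.0937 CPM against 2.84, 1.29 and 1.62 CPM. Every KO library exceeded every WT library, although WT replicate 3 was below the floor of 3 counts. The fitted fold was 6.32, a log2 fold change of 2.66 ± 0.58 whose 95% interval began at 1.32, with an unadjusted p of 0.00193 and an adjusted p of 0.249 (edgeR quasi-likelihood test). The counts summed over libraries gave a KO to WT ratio of 5.98, with a 95% counting interval of 4.02 to 9.17 that covers counting error only. The call depended on the setting. The adjusted p of Ngp was 0.00257 with DESeq2, 0.00628 with total-count scaling in edgeR, 0.0159 with no filter and 0.0393 without WT replicate 2, and over all 14 alternatives it ran from 0.00257 to 0.706.

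Camp had 4, 0 and 0 counts in the WT libraries against 23, 11 and 14 in the KO libraries, or 0.0979, 0 and 0 CPM against 0.989, 0.405 and 0.483 CPM. All KO libraries were above the floor of 3 counts and WT was above it only in replicate 1, the zeros allowing up to 0.0881 and 0.141 CPM. The summed counts, 48 against 4, gave a KO to WT ratio of 14.5 with a counting interval of 5.32 to 55.5. The fitted log2 fold change of 3.83 ± 0.98 had an unadjusted p of 0.00489 and an adjusted p of 0.293 (edgeR quasi-likelihood test), and its size depends on the prior count that the fit adds. Without WT replicate 1, whose 4 counts were the only ones in WT, the fitted value went to 7.07. Its adjusted p was 0.0316 with total-count scaling and 0.0556 with DESeq2, within a range of 0.0316 to 0.731 over 14 alternatives. The genes are 570 kb apart, and of the 9 tested genes between them 0 were called and 0 had groups that did not overlap, with log2 fold changes from -0.28 to 0.50. Relative to S100a9, Ngp stood at 0.0118, 0.00713 and 0.00467 in WT and at 0.0996, 0.0473 and 0.0601 in KO, as ratios of RPKM.

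Across the members, 0 of 10 were called by edgeR's quasi-likelihood test at an adjusted p under 0.05, beside 0.109% of all tested genes. At an unadjusted p under 0.05 there were 3 (Mmp9, Ngp and Camp), beside 10.3% of all tested genes, and all 3 were higher in KO, beside 5.62%. The same 3 were the members in which every KO library exceeded every WT library, beside 8.59% of tested genes, and no member had the opposite order. In either direction, 17.8% of tested genes did not overlap. DESeq2 called 1 member, Ngp, beside 1.21% of the genes to which it gave an adjusted p. The quasi-likelihood test called 2 members (Ngp and Camp) with total-count scaling, beside 0.841% of genes, and 1 member (Ngp) with no filter, beside 0.582%. Limma-voom called 0 members, beside 0.178% of genes, and had 3 at an unadjusted p under 0.05, beside 11.6%. Since Ngp and Camp were of the kind that reaches the filter through the group in which they are high, these counts are a description only.

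WT replicate 2 bore on most of these values. Without it, 8 members had groups that did not overlap, all higher in KO, beside 41.4% of tested genes. In that comparison 1 member (Ngp) was called, beside 5.29% of genes. The median log2 fold change of the members was 0.29 with all libraries, 0.94 without WT replicate 2 and -0.08 without WT replicate 1, beside 0.03 for all tested genes with all libraries. With all libraries, 6 members had a fold change above 0 and 4 below.

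**Figure D3:**
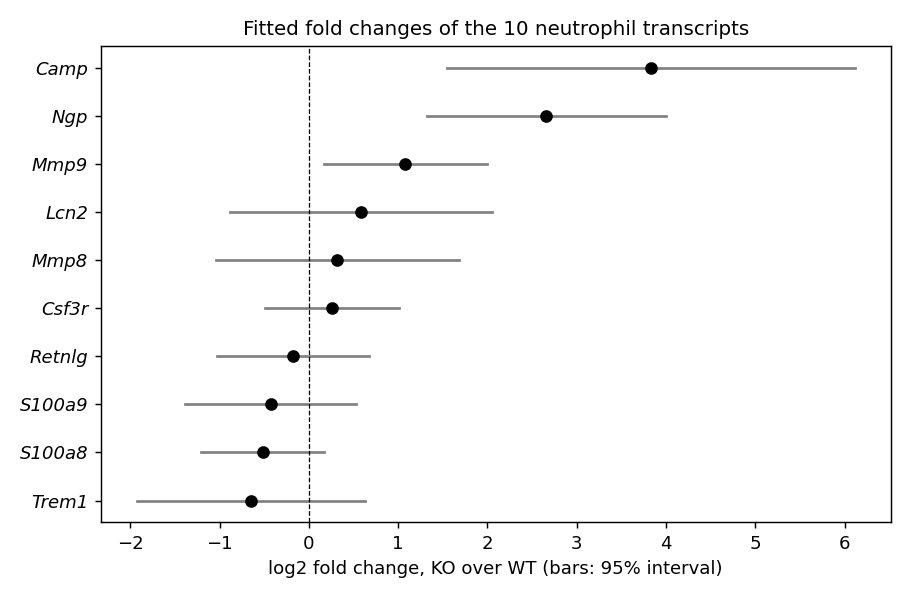
Fitted log2 fold change of KO over WT (horizontal axis, points) with its 95% interval (bars) for each of the 10 transcripts, ordered by value, and a dashed line at 0. The intervals of Mmp9, Ngp and Camp lie above 0 and those of the other 7 include 0. The intervals are not adjusted for the number of genes tested, and no member was called by edgeR's quasi-likelihood test. For Camp a difference was built into being tested.

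**Figure D4:**
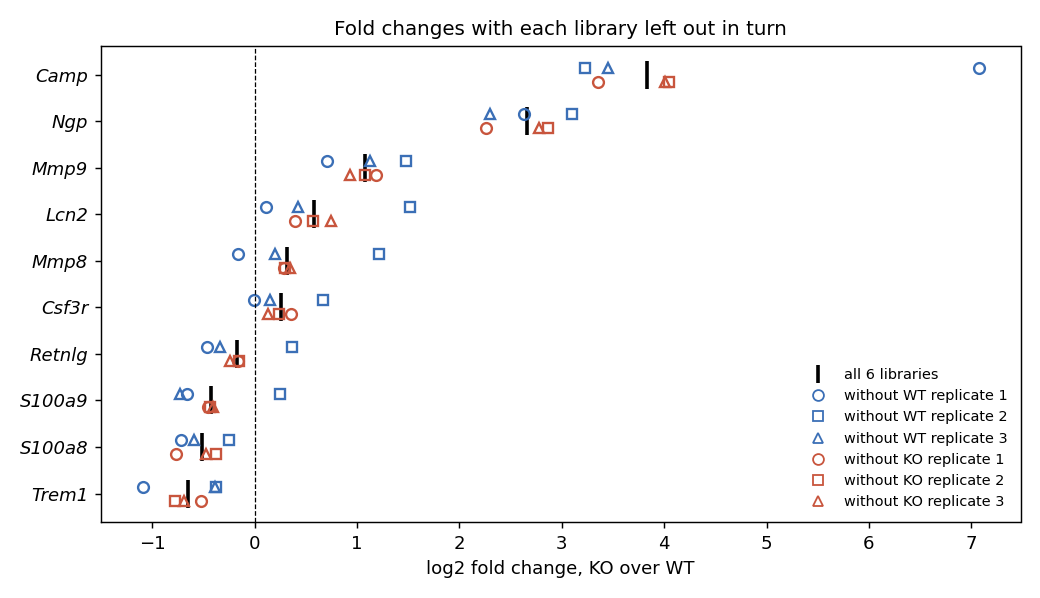
Log2 fold change of KO over WT (horizontal axis) for each transcript with all 6 libraries (black bar) and with each library left out in turn (open symbols, blue for WT and red for KO libraries left out, shape giving the replicate). Leaving out WT replicate 2 moves S100a9 and Retnlg across 0, leaving out WT replicate 1 moves Mmp8 and Csf3r across 0, and the other 6 genes keep their sign throughout.

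The members did not vary together as 1 block. Over the 6 libraries, Lcn2 and Mmp8 followed each other most closely (Pearson r of log2 CPM 0.98), then Csf3r and Mmp8 (0.92), Ngp and Camp (0.91) and S100a9 and Retnlg (0.89). Camp ran against Trem1 (-0.58) and S100a8 (-0.55). These correlations are descriptions over 6 libraries that share depth and scaling, and they carry no test. The mean profile of the 10 standardized members was lowest in WT replicate 1 (-1.16), highest in WT replicate 2 (0.81) and between 0.13 and 0.34 in KO. Mmp8 lay nearest to it (r = 0.97), then Lcn2 (0.96) and Csf3r (0.94), while Camp was the farthest (0.19).

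Among 12988 other tested genes of sufficient level, those most like the 10-member profile were Bpifb5, Tspan11, Galnt4, S100b, Kremen1, Poglut1, Npnt and Tmem243, with r from 0.989 to 0.994 over the 6 libraries. None of them is one of the 57 other neutrophil genes listed below, which says little, since so few of the 12988 genes were taken. The mean profile of Ngp, Camp, Lcn2 and Mmp8 was negative in WT replicates 1 and 3, near 0 in WT replicate 2 (0.10) and from 0.47 to 0.92 in KO. Ngp and Camp reached the low-count filter by way of the KO libraries, so high KO values in this profile were partly built in. These genes did not all vary together, with r of 0.98 for Lcn2 and Mmp8 and 0.91 for Ngp and Camp, but 0.15 for Camp and Mmp8 and 0.28 for Camp and Lcn2. Most like this profile were Slc2a3, Ms4a4b, Gpr183, St6gal1 and Tbc1d24, with r from 0.988 to 0.994, as a description only.

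Another 57 genes of neutrophils, chosen for their known roles, were read in the same way. Of these 44 were tested and 0 were called by the quasi-likelihood test, with 3 at an unadjusted p under 0.05, and 24 had a fold change above 0 and 20 below (median log2 fold change 0.04). WT replicate 2 was the highest WT library for 35 of the 44. Pglyrp1 and Il1b were among the 3 and were named after their values were seen. Pglyrp1, a peptidoglycan-binding granule protein and a ligand of TREM1, measured 26.8, 53.4 and 45.5 CPM in WT against 72.3, 90.9 and 59.2 CPM in KO (log2 fold change 0.82 ± 0.27, edgeR adjusted p = 0.388). Il1b measured 3.13, 10.4 and 2.43 CPM against 1.59, 2.65 and 1.90 CPM (-1.39 ± 0.56, edgeR adjusted p = 0.468). For Pglyrp1 the lowest KO library exceeded the highest WT library, while the groups overlapped for Il1b.

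Primary granule genes were close to absent. Mpo, the myeloperoxidase gene, had 3, 0 and 0 counts in the WT libraries. The KO libraries held 26, 7 and 5, of which the 26 came from replicate 1, and the summed counts gave a ratio of 15.4 with a counting interval of 4.87 to 77.7. Elane, the elastase gene, had 2 counts in WT replicate 3, 1 count in KO replicate 3 and 0 elsewhere, and of the 6 genes of the list only Serpinb1a, a protease inhibitor of the cytosol, was tested (log2 fold change 0.20). Prtn3, of the same list, had 1, 10 and 4 counts in WT and 5, 5 and 3 counts in KO (means of 0.17 CPM in both groups). Mpo, Elane and Prtn3 were under the filter, and all were singled out after their values were seen. Ly6g, the antigen by which mouse neutrophils are usually sorted, had 0, 1 and 6 counts (WT) against 0, 4 and 3 counts (KO). It was named after its values were seen, and it was at or near the floor in these libraries. Most surface genes of neutrophils were not, since 15 of the 17 listed passed the filter. Cxcr2, also named after its values were seen, had 48, 231 and 76 counts (WT) and 114, 130 and 147 counts (KO).

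The secondary and tertiary granule list had 10 of 11 genes tested, 7 with a fold change above 0, and a median of 0.42 on the log2 scale. Its 3 most abundant genes were Lyz2 (lysozyme, 0.94), Hp (haptoglobin, 0.35) and Ltf (lactoferrin, 0.31), all of which other lung cells express as well. Ltf measured 540, 1613 and 701 CPM in WT and 1458, 1320 and 757 CPM in KO, again with WT replicate 1 lowest and WT replicate 2 highest. Surface genes had 15 of 17 tested and a median of 0.36, led by Itgb2 (the leukocyte integrin chain CD18, 0.78), Fcgr3 (an IgG receptor, 0.06) and Mcemp1 (-0.30). Cytoplasmic genes had 14 of 16 tested and a median of -0.05, led by S100a11 (-0.25), Cyba (an NADPH oxidase subunit, 0.35) and Msrb1 (-0.12). Cytokine and mediator genes had 4 of 7 tested and a median of -0.27, led by Ccrl2 (0.01), Ptgs2 (0.03) and Il1b. None of the tested genes in these lists was called.

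Of 10 transcription factors and growth factor genes of granulopoiesis, 7 were tested, 0 were called and 2 had an unadjusted p under 0.05, both lower in KO. Cebpd, which encodes C/EBPδ, measured 56.8, 59.8 and 68.0 CPM in WT and 16.3, 21.1 and 27.2 CPM in KO. Every KO library was below every WT library, and the log2 fold change of -1.51 ± 0.20 had an adjusted p of 0.0524 (edgeR quasi-likelihood test). Cebpb measured 35.0, 47.4 and 36.9 CPM against 24.5, 23.0 and 21.5 CPM, without overlap (-0.79 ± 0.15, edgeR adjusted p = 0.176). Both genes are also active in ECs and many other cells. Cebpa (0.27), Csf2ra (0.23), Spi1, which encodes PU.1 (-0.19), Klf5 (-0.25) and Csf2rb (-0.30) had overlapping groups. Cebpe, which is needed for secondary granules, had 0, 15 and 4 counts in WT and 0 in each KO library, which allows at most 0.129 CPM there (3 counts). Gfi1, a repressor needed for granulopoiesis, had 0 counts in WT and was under the filter in KO.

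Among 11 genes whose products bind or restrain the members' products, 10 were tested and 0 were called. Their log2 fold changes had a median of 0.47, and 1 gene (Pglyrp1) was at an unadjusted p under 0.05. For calprotectin, the receptors Ager and Tlr4 had log2 fold changes of 0.71 ± 0.51 and 0.45 ± 0.25, and Ager, which alveolar type I cells express strongly, was the most abundant of the list. For cathelicidin, the receptor gene Fpr2 had 0.62 ± 0.42. For lipocalin, the receptor gene Slc22a17 had 0.51 ± 0.51. The TREM1 adaptor Tyrobp had -0.12 ± 0.29. Of the inhibitors of matrix proteases, Timp1 had -0.91 ± 0.43 (edgeR, adjusted p = 0.508), Timp3 -0.26 ± 0.22, Timp2 0.20 ± 0.16 and Reck 0.50 ± 0.38.

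Markers of other cells were present in the same libraries, and some varied with the members. The 7 alveolar type II genes, led by Sftpc, Sftpb and Sftpa1 (log2 fold changes 0.92, 0.77 and 0.82), summed to 5418, 50640 and 15620 CPM in WT and to 40010, 48620 and 39320 CPM in KO, with a median of 0.77, 0 genes called and WT replicate 2 highest within WT for all 7. The airway list, led by Scgb1a1, Cyp2f2 and Bpifa1 (0.72, 0.78 and 1.18), ran from 18780 to 47560 CPM in WT and from 41740 to 70990 CPM in KO, with a median of 0.59 and 0 genes called. Over the 6 libraries Sftpc correlated at r = 0.97 with both Lcn2 and Mmp8, at 0.94 with Mmp9 and at 0.91 with Csf3r. With the other members r ran from 0.12 (S100a8) to 0.72 (Retnlg). The part of these cells in the members' values was not tested.

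The 8 B cell genes summed to 11.2 to 23.2 CPM in WT and to 78.3 to 83.4 CPM in KO. Their fold changes had a median of 2.36 on the log2 scale, and 3 of them rose in KO (edgeR quasi-likelihood test: Ms4a1, 2.69, adjusted p = 0.0188, Fcrla, 2.30, adjusted p = 0.0276, and Cd79a, 2.53, adjusted p = 0.0484). These calls were lost with any 1 of the 3 KO libraries left out and with the replicate number as a block, settings in which 0 of all genes were called. Cd79b, the most abundant of the list, had 2.43. The pan-leukocyte list summed to 145 to 226 CPM in WT and 227 to 314 CPM in KO, with 0 of 6 genes called, a median of 0.46 and Laptm5 (0.19), Lcp1 (0.06) and Cd52 (0.90) in the lead. Ptprc, the pan-leukocyte antigen CD45, named after its values were seen, measured 7.76, 21.8 and 17.5 CPM in WT and 53.3, 40.4 and 47.3 CPM in KO (log2 fold change 1.58, edgeR adjusted p = 0.249). T and NK cell genes summed to 3.67 to 5.46 against 8.06 to 11.6 CPM, with 7 of 10 tested, 0 called, a median of 1.01 and Trac (0.62), Gzma (0.60) and Cd3g (0.66) in the lead. Macrophage and monocyte genes, led by Cd14, Cd68 and Ear2 (0.29, 0.36 and 0.30), summed to 155 to 394 against 302 to 375 CPM, with 0 of 17 called and a median of 0.31. Ptprc correlated with Mmp9 at r = 0.95 and with Ngp and Lcn2 at 0.82, and with S100a9 at 0.07. The part of other leukocytes in the members' values was not tested.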

How the data were processed

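PolyA-enriched, strand-specific RNA-seq libraries of lung ECs (3 WT, 3 KO, grouped by the sample labels) were used. For each library the authors deposited raw read counts, whole numbers for every gene with no normalization. Per the file headers and the submitters' notes, reads were demultiplexed with bcl2fastq 2.18, aligned with STAR 2.5.4b to mm10 (GRCm38), and uniquely aligned reads were counted over exons on the reverse strand with featureCounts of Subread 2.0.0, with an Ensembl annotation. Reads with several alignments or over several genes were not counted, so near-identical genes can lose reads. The methods of the study also name hg38 and Kallisto, and the TPM values were not used here. Of 47729 genes, 47224 had a symbol in GENCODE's annotation of the same build, from which coordinates were taken. There were 0 columns of other samples.

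Counts were tested in R 4.3.3 with edgeR 4.0.16 (filterByExpr with its default of 10 counts at the median library, TMM scaling, glmQLFit and glmQLFTest with genotype as the only term) on 14625 genes, with Benjamini-Hochberg adjustment over all of them and a threshold of 0.05. The test has 3 libraries per group, and a permutation of labels could not go below p = 0.1, so no permutation p is given. The biological coefficient of variation was 0.256. RPKM was computed from CPM and the counted exon length. Libraries differed from each other by more than sampling noise (lowest chi-square per degree of freedom 40.3), so none was counted as a duplicate. Depth limits genes near the floor of 3 counts, and counting intervals (exact, 95%) cover counting error only.

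The members and lists were chosen with earlier results of these data known. All members are named, with the 3 genes of highest mean RPKM of each other list and every gene called. All genes of the lists of partners and of granulopoiesis may be named, and the 8 and 5 genes most like both mean profiles (log2 CPM with a prior count of 2). The lists are 5 of other neutrophil genes, and those of granulopoiesis factors, partners of the members, recruitment, ECs, macrophages and monocytes, pan-leukocyte genes, B cells, T and NK cells, eosinophils with basophils and mast cells, platelets, erythroid cells, alveolar type II cells and airway. The scripts were tested on simulated data. Alternatives were DESeq2 1.42.0 (the tool of the study's methods), limma-voom (limma 3.58.1), glmQLFit with legacy set to FALSE, RLE and total-count scaling, removal of mitochondrial genes, no filter, a mean of at least 50 counts, the replicate number as a block, and each library left out in turn.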

Additional observations from a re-analysis of the deposited data

How the results depend on the processing

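With 0 members called in the reported test, 1 (Ngp) was called with DESeq2, 2 (Ngp and Camp) with total-count scaling, 1 (Ngp) with no filter, and 0 to 1 with a library left out (1, Ngp, without WT replicate 2). Among all genes, calls went from 16 (5 higher and 11 lower in KO) to 187 with DESeq2, 26 with limma-voom, 26 with RLE scaling, 123 with total-count scaling (61 higher and 62 lower) and 152 with no filter (87 higher and 65 lower). They ran from 0 to 791 with a library left out, 791 of them without WT replicate 2 (660 higher and 131 lower) and 0 with any 1 of the 3 KO libraries left out (986 to 1112 at an unadjusted p under 0.05). Total-count scaling moved the median log2 fold change of all genes from 0.03 to -0.13. Calls among the other neutrophil genes went from 0 of 44 tested to 1 of 57 with DESeq2, 2 of 44 with total-count scaling and 1 of 57 with no filter, and ran from 0 to 3 of 44 to 46 with a library left out (1 without WT replicate 1, 3 without WT replicate 2). Members whose groups did not overlap were 3 with all libraries, beside 17.8% of all tested genes. They went to 1 with a mean of at least 50 counts, which kept 7 members by construction. With a library left out they ran from 3 to 8, the 8 without WT replicate 2, where 41.4% of all tested genes did not overlap. These counts are a description only. The members' median ran from -0.0847 to 0.94 with a library left out and from 0.21 to 0.60 otherwise. The signs of Csf3r (-0.009 to 0.67 with a library left out), Mmp8 (-0.16 to 1.22), Retnlg (-0.46 to 0.36) and S100a9 (-0.72 to 0.25) were not stable, and the other 6 members kept theirs under all alternatives. The cause of these shifts was not tested.

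The replicate number as a block (replicate block) gave 0 called genes (1776 at an unadjusted p under 0.05) and 0 called members, with a median of 0.50 for the members. The labels share the numbers 1 to 3. Same-numbered libraries had correlations of -0.08, 0.22 and 0.01 in their deviations from the group means, and different-numbered ones from -0.18 to 0.19. Pairing by number was not evident, but 3 libraries per group cannot exclude it.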

Other observations

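Of 11 genes for the recruitment of neutrophils to vessel walls, 9 were tested and 0 were called by edgeR's quasi-likelihood test, with a median log2 fold change (KO over WT) of -0.17. Icam1, Pecam1 and Icam2, adhesion molecules of ECs and the most abundant of the list, had 0.22, 0.06 and 0.22. The genes at an unadjusted p under 0.05 were Cxcl5 and Sele, named after their values were seen. Cxcl5, a neutrophil chemokine, measured 4.75, 8.37 and 5.38 CPM in WT and 4.08, 2.32 and 1.24 CPM in KO (log2 fold change -1.29 ± 0.43, edgeR adjusted p = 0.394). Sele, the endothelial selectin to which neutrophils tether, had 78, 74 and 32 counts (WT) against 16, 13 and 34 counts (KO), with a log2 fold change of -1.25 ± 0.42 (edgeR adjusted p = 0.394). In CPM the KO libraries lay below all WT libraries for both.

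The 6 platelet genes summed to 28.7 to 43.0 CPM in WT and 39.2 to 77.6 CPM in KO, with 0 called, 4 at an unadjusted p under 0.05 and a median of 0.78, and they were led by Ppbp (0.96), Pf4 (0.78) and Gp9 (0.78). The 6 erythroid genes summed to 61.6 to 102 against 66.6 to 104 CPM, with 0 called and a median of 0.14, led by Hbb-bs (0.25), Hba-a1 (0.18) and Hbb-bt (0.10). Of 8 eosinophil, basophil and mast cell genes only Siglecf (-0.18) and Cpa3 (-0.63) were tested, and neither was called, while Prg2, also among the 3 most abundant, was not tested. The list summed to 3.13 to 5.75 CPM in WT and 3.55 to 6.88 CPM in KO.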
